A study of Mus musculus with 18 samples.

Results

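Retinoid transport and synthesis genes encode the proteins that carry vitamin A in blood, take it into cells, turn it into retinoic acid and bind the product in the cytosol. The 9 genes described here, Rbp4, Ttr, Stra6, Rdh10, Aldh1a1, Aldh1a2, Aldh1a3, Crabp1 and Crabp2, were chosen by their symbols, and 9 of 9 were found among the 30172 genes listed in each of 18 expression files. The files come from a study of how a mother's high-methionine diet, which raises homocysteine, bears on the ovaries of her daughters. All animals were wild-type C57BL/6J mice, and the daughters themselves (F1) received no treatment. In the F1-HHcy groups, HHcy standing for hyperhomocysteinemia, the dam ate a diet with 3% methionine by weight until the end of lactation, beginning 4 weeks before mating by the sample labels, a length the study's text gives otherwise. In the F1-Control groups the dam ate normal chow. Whole ovaries of F1 females were taken at postnatal day 3 (Pd3), Pd7 and Pd21, with 3 libraries for each of the 6 groups of diet and day. Stranded libraries of poly-A RNA were sequenced, those of both earlier days as batch 1 and those of Pd21 as batch 2. The labels do not say whether the libraries of a group came from separate animals, so the p-values below measure only the spread between these samples.

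Expression was given as FPKM, a count of fragments scaled by gene length and by library size, so that genes of different length share 1 scale. At Pd3 the libraries held between 35117175 and 35844843 fragments on genes in F1-Control and between 34470522 and 36248946 in F1-HHcy. At Pd7 they held between 35356970 and 36583723 in F1-Control and between 33630547 and 37059322 in F1-HHcy. The Pd21 libraries held between 37984987 and 39085851 fragments in F1-Control and between 36058379 and 39399215 in F1-HHcy. At these depths a single fragment on a gene of 1 kilobase came to between 0.0254 and 0.0297 FPKM, which covers counting error only.

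Vitamin A leaves the liver as retinol bound to retinol-binding protein, which circulates in a complex with transthyretin. The membrane receptor STRA6 takes retinol into cells, where retinol dehydrogenases oxidise it to retinaldehyde and the ALDH1A enzymes oxidise retinaldehyde to retinoic acid. Retinoic acid acts through nuclear receptors, and in the fetal ovary it is best known as a signal tied to the entry of germ cells into meiosis.

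Replicate 3 of F1-HHcy at Pd3 stood apart from its group before any gene was singled out. The root mean square (RMS) difference of its log2(FPKM + 1) values from those of the other 2 libraries of its group was 0.521 log2 units, against 0.190 to 0.473 in all other libraries. The calls at Pd3 of members and of the other retinoid genes listed below are therefore given with and without replicate 3. Further results at Pd3 rest on all libraries unless stated.

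The first question was which of the 9 genes differed with the dam's diet on each day. At Pd3 Rbp4 was higher and Aldh1a1 lower in F1-HHcy, at Pd7 Aldh1a2, Crabp1 and Rdh10 were lower, and at Pd21 no member passed the test. Each test compared 3 libraries with 3 by limma on log2(FPKM + 1), a scale that understates the change of genes with low values. A change was called when its p, adjusted by Benjamini-Hochberg over all genes tested that day, lay under 0.05. A gene was tested on a day when 3 or more of its 6 libraries reached 1 FPKM.

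**Figure D1:**
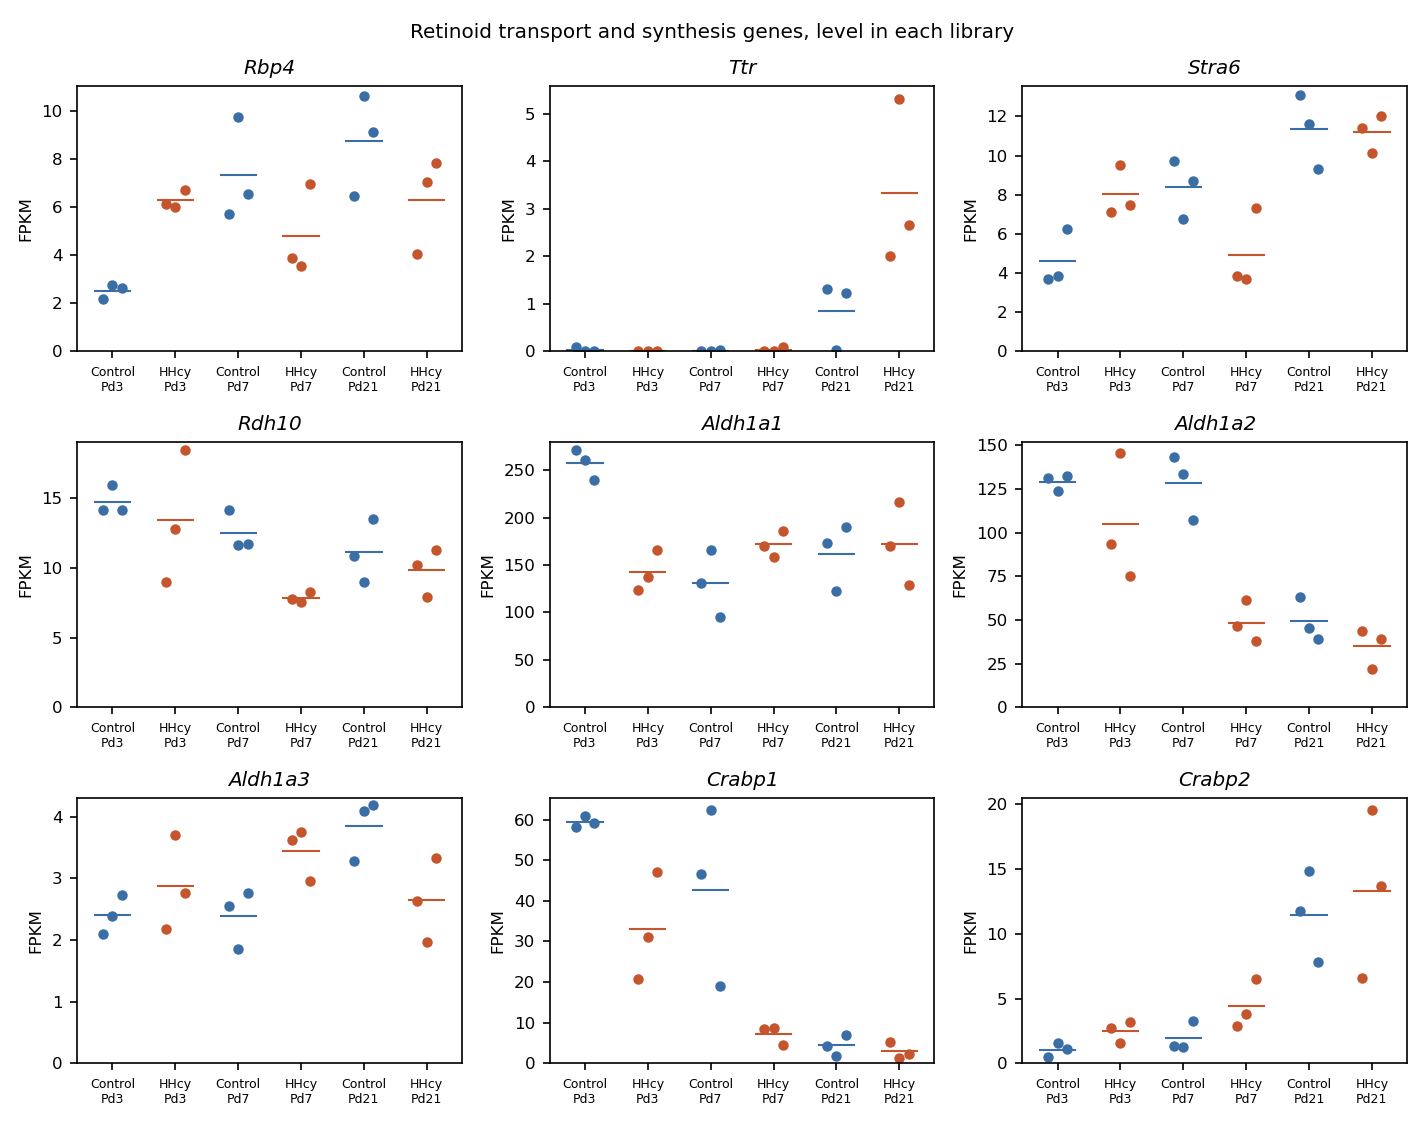
FPKM of the 9 retinoid genes in each of the 18 libraries, with points for libraries and bars for group means, by day and diet. At Pd3 all F1-HHcy libraries of Rbp4 lie between 6.02 and 6.71 FPKM, above all F1-Control libraries.

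At Pd3, 8 of the 9 members passed the filter on low values, all but Ttr, and 2 of the 8 were called, against 3.07% of the 13277 genes tested. Of the 8, 1 was higher, Rbp4, against 1.64% of all genes tested, and 1 was lower, Aldh1a1, against 1.43%. Limma called 0 members without replicate 1, 2 or 3 of F1-Control, where 0, 1 and 53 of all genes tested were called in place of 408. With any 1 of the 6 libraries left out the log2 change stayed between 0.98 and 1.10 for Rbp4 and between -0.97 and -0.76 for Aldh1a1. Without F1-HHcy replicate 1, and likewise without replicate 2, only Rbp4 was called among the members, and 84 genes in all. Without replicate 3, the library that stood apart, 4 members were called among 2824 genes, namely Rbp4 and Stra6 higher and Aldh1a1 and Crabp1 lower. With no filter on low values 0 members were called, with 5 members at an unadjusted p under 0.05. With all 6 libraries and the filter, 5 of 8 members had an unadjusted limma p under 0.05. Of all genes with 1 FPKM reached in both diets, 2774 of 13058 had such a p. Limma-voom on recovered fragments called the same number of members as limma, 2.

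At Pd7, 8 of the 9 members were tested, again all but Ttr, and 3 were called, against 11.9% of 13299 genes tested. All 3 were lower in F1-HHcy, namely Aldh1a2, Crabp1 and Rdh10, against 5.98% of all genes tested that were lower. In the other direction 0 of 8 members were called by limma and also by limma-voom, against 5.88% of all genes tested. In either direction 6 of 8 members had an unadjusted limma p under 0.05. Of all genes with 1 FPKM reached in both diets, 3943 of 13034 had such a p. Rdh10 was not called without F1-Control replicate 1, with 959 genes called in all, or without F1-HHcy replicate 1 or 2, with 493 and 581 genes in place of 1577. Without F1-HHcy replicate 3, with 728 genes called, Stra6 was called as lower and Rdh10 was not. Without F1-Control replicate 2, with 725 genes called, the calls were Aldh1a2, Crabp1 and Rdh10, and without F1-Control replicate 3, with 1845, Crabp2 was also called as higher. With no filter on low values 0 members and 91 genes were called, with 5 members at an unadjusted p under 0.05, and in the fit of all 18 libraries Stra6 was called and Rdh10 was not.

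At Pd21 all 9 members were tested and limma called 0 of 9, against 2.23% of 13350 genes tested. Limma called 0.0% of all genes as higher and 2.23% as lower. A gene with 1 FPKM reached in libraries of only 1 diet was tested only through the group where it was high. Of the genes called, 83 of 408 at Pd3, 181 of 1577 at Pd7 and 201 of 298 at Pd21 were of that kind, with no member among them, and such genes are left out of the list counts and medians below. Of the others 2.49%, 10.7% and 0.741% were called. At an unadjusted p under 0.05 there was 1 of 9 members, Ttr, against 654 of 13084 genes with 1 FPKM reached in both diets. Limma-voom also called 0 members. The number of genes called at Pd21 fell from 298 to 10 without F1-Control replicate 1, to 119 without replicate 2 and to 1 without replicate 3. It was 183, 143 and 185 without F1-HHcy replicate 1, 2 or 3, and in each of these settings 0 members were called.

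A looser rule took an unadjusted limma p under 0.05 with a log2 change beyond 0.58 in size. By that rule 5 of 8 members passed at Pd3, against 9.74% of all genes tested, with Crabp2, Rbp4 and Stra6 higher and Aldh1a1 and Crabp1 lower. At Pd7 it took 5 of 8 members, against 16.4%, with Crabp2 higher and Aldh1a2, Crabp1, Rdh10 and Stra6 lower. Only Ttr, higher, passed it at Pd21, against 5.14% of all genes tested.

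**Figure D2:**
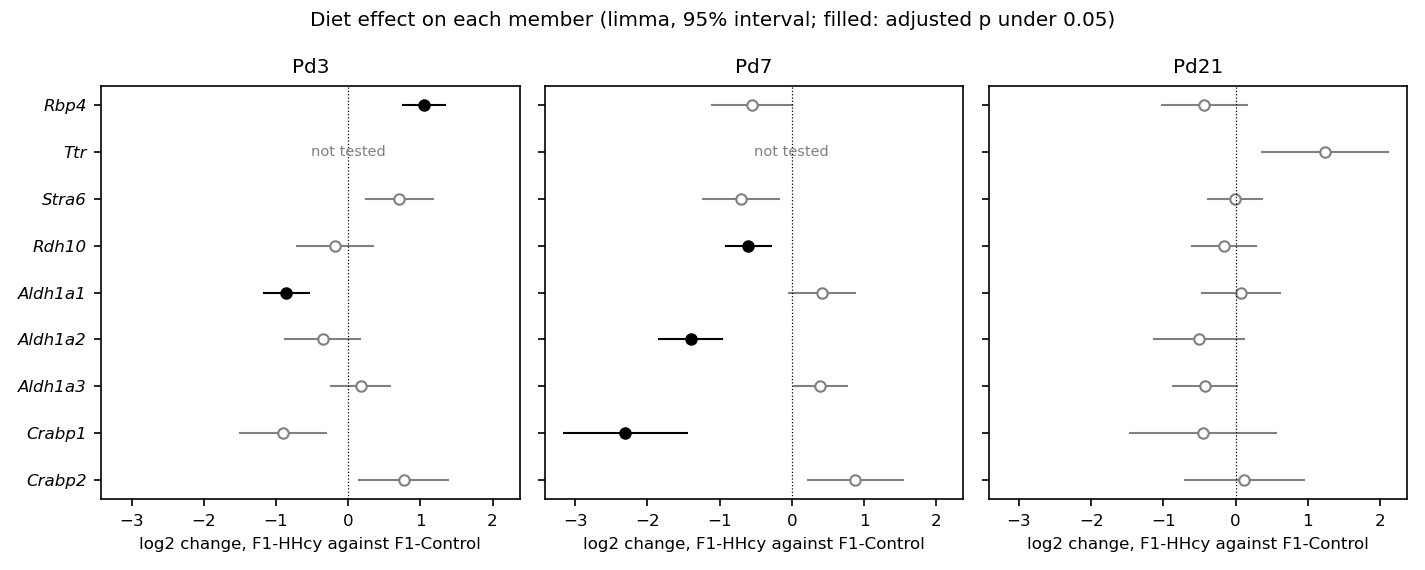
Log2 change of each member between F1-HHcy and F1-Control at Pd3, Pd7 and Pd21, with filled points where the adjusted p lay under 0.05. The called changes run from -2.30 for Crabp1 at Pd7 to 1.05 for Rbp4 at Pd3.

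Whether a diet effect differed between days was tested as the difference itself, in a fit of all 18 libraries over 14607 genes. Ttr, which passed the filter of that fit through Pd21 alone, was left aside. Between Pd7 and Pd3 limma called 0 of the 8 other members, against 0.411% of all genes. At an unadjusted p under 0.05 were 5 of the 8, against 1983 of 14183 genes that reached 1 FPKM on more than 1 day. The members nearest to a call were Rbp4 at -1.60 log2 units (adjusted p 0.0559), Stra6 at -1.41 (adjusted p 0.0569) and Aldh1a1 at 1.28 (adjusted p 0.0728). Rbp4, Stra6 and Aldh1a1 were all called without F1-HHcy replicate 3 at Pd3, and Rbp4 and Stra6 without F1-HHcy replicate 3 at Pd7. Stra6 alone was called without F1-Control replicate 3 at Pd3. Rbp4 alone was called without F1-Control replicate 1 at Pd7 or without F1-HHcy replicate 1 at Pd21. With a pseudocount of 0.1 Rbp4 was called, and with median-ratio scaling Stra6.

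Between Pd21 and Pd7 limma called 0 of these 8 members, with 4 of 8 at an unadjusted p under 0.05. Of the 14183 genes that reached 1 FPKM on more than 1 day, 2630 had such a p. Of all genes 3.89% were called, and 2.82% of those that reached 1 FPKM on more than 1 day. Crabp1 was called there without F1-Control replicate 3 at Pd7. Between Pd21 and Pd3, 1 of the 8 members was called, Rbp4, against 4.59% of all genes and 3.43% with the same limit on days. Its diet effect at Pd21 lay 1.48 log2 units under that at Pd3, a difference of -1.48 ± 0.35 (SE, adjusted p 0.0187), with 3 of 3 F1-HHcy libraries above all F1-Control libraries at Pd3 and the groups overlapping at Pd21. The Rbp4 call was lost without F1-Control replicate 1 at Pd3, or without F1-Control replicate 2 or 3 at Pd21. Aldh1a1 was added without F1-HHcy replicate 3 at Pd3 or at Pd21. In each comparison of Pd21 with an earlier day, age and batch cannot be told apart.

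Among the carriers, Rbp4 encodes the retinol-binding protein of blood, made mainly by liver and fat. At Pd3 its 3 F1-Control libraries read 2.19, 2.75 and 2.63 FPKM, and its F1-HHcy libraries 6.15, 6.02 and 6.71 FPKM. Every F1-HHcy library lay above every F1-Control library, and replicate 3, which stood apart elsewhere, read much as replicates 1 and 2. The group means were 2.53 ± 0.297 and 6.29 ± 0.367 FPKM (SD, n = 3 each), so that the F1-HHcy mean was 2.49 times the control mean. By limma Rbp4 rose by 1.05 ± 0.13 log2 units (SE, adjusted p 0.0169), with 3 of 3 F1-HHcy libraries above the controls. Over 14 settings, libraries left out included, its change lay between 0.98 and 1.32 and its adjusted p between 0.00311 and 0.128.

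At Pd7 Rbp4 read 5.70, 9.75 and 6.55 FPKM in F1-Control and 3.86, 3.53 and 6.95 FPKM in F1-HHcy. The groups overlapped, through F1-HHcy replicate 3, and the difference of -0.55 log2 units missed the threshold (limma adjusted p 0.165). At Pd21 the F1-Control libraries read 6.48, 10.6 and 9.11 FPKM and the F1-HHcy libraries 4.04, 7.04 and 7.83 FPKM, which overlapped too. The 6 group means ran from 8.74 FPKM in F1-Control at Pd21 through 7.33 in F1-Control at Pd7, 6.30 in F1-HHcy at Pd21, 6.29 in F1-HHcy at Pd3 and 4.78 in F1-HHcy at Pd7 to 2.53 in F1-Control at Pd3. Neighbours in that order overlapped except the last pair, where every F1-Control library at Pd3 lay lowest. In bulk ovary, more or fewer cells of a type and more or less RNA per cell cannot be told apart, for Rbp4 or for any gene below. Rbp4 is also 1 of the 10 adipocyte markers listed, and the other markers of that list summed to 1.39, 4.10 and 1.48 FPKM in F1-Control at Pd3 and to 10.7, 12.0 and 4.26 FPKM in F1-HHcy, without overlap. Hepatocyte markers besides Ttr summed to 2.69, 3.22 and 5.46 FPKM in F1-Control at Pd3 and to 57.2, 26.7 and 12.1 FPKM in F1-HHcy. The hepatocyte sums did not overlap either. Apoa1 was the most abundant hepatocyte marker in both groups, while Fga, and Ttr itself, were at 0 in all F1-HHcy libraries at Pd3. Of that list 1 gene was tested at Pd3 and 0 were called. The part of both lists in the result was not tested.

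Ttr encodes transthyretin, the partner of retinol-binding protein in blood. At Pd3 it was listed at 0.0862, 0 and 0 FPKM in F1-Control and at 0 in all F1-HHcy libraries. At Pd7 it was listed at 0, 0 and 0.0207 FPKM in F1-Control and at 0, 0 and 0.0819 FPKM in F1-HHcy. These values lay at or near the floor in every library of both days, so no fold is given. At Pd21 it read 1.31, 0.020 and 1.22 FPKM in F1-Control and 2.00, 5.31 and 2.66 FPKM in F1-HHcy, so that 3 of 3 F1-HHcy libraries lay above all controls. Ttr passed the filter at Pd21 only, where its means were 0.850 ± 0.720 and 3.32 ± 1.76 FPKM (SD, n = 3 each), and the difference of 1.24 ± 0.38 log2 units (SE) missed the threshold with a limma adjusted p of 0.27. In the fit of all 18 libraries the adjusted p was 0.00999, but the SE of 0.27 there was drawn in part from the 12 libraries at or near the floor, so that call is not counted. In every other limma fit and in limma-voom the adjusted p lay between 0.199 and 0.772.

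The highest mean of Ttr was that of F1-HHcy at Pd21, whose libraries did not overlap those of F1-Control at Pd21, the next in order. F1-Control at Pd21 overlapped F1-Control at Pd3 through its replicate 2. Ttr is also 1 of the 10 hepatocyte markers. The other hepatocyte markers in the files summed to 47.9, 51.0 and 37.8 FPKM in F1-Control at Pd21 and to 33.6, 50.0 and 57.8 FPKM in F1-HHcy, which overlapped. Most of each sum came from Apoa1, with 46.2, 50.4 and 34.6 FPKM in F1-Control.

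Stra6 encodes the membrane receptor that takes retinol from its binding protein into cells. At Pd3 it read 3.72, 3.83 and 6.27 FPKM in F1-Control and 7.13, 9.52 and 7.47 FPKM in F1-HHcy. At Pd7 the order of the diets was the other way, with 9.73, 6.78 and 8.72 FPKM in F1-Control and 3.84, 3.68 and 7.30 FPKM in F1-HHcy. The groups did not overlap at Pd3 and overlapped at Pd7, where F1-HHcy replicate 3 lay among the controls. The difference was 0.71 ± 0.20 log2 units (SE, limma adjusted p 0.0993) at Pd3 and -0.70 ± 0.23 (adjusted p 0.0765) at Pd7, and neither passed the test with all libraries. At Pd21 the libraries read 13.1, 11.6 and 9.33 FPKM in F1-Control and 11.4, 10.1 and 12.0 FPKM in F1-HHcy, overlapping. The means were highest at Pd21, 11.3 FPKM in F1-Control and 11.2 in F1-HHcy, and the latter group lay without overlap above F1-Control at Pd7, the next in order. From there the means of 8.41 FPKM in F1-Control at Pd7, 8.04 in F1-HHcy at Pd3, 4.94 in F1-HHcy at Pd7 and 4.61 in F1-Control at Pd3 overlapped from neighbour to neighbour.

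The annotated span of Stra6 overlaps Ccdc33, and whether fragments were counted by strand is not stated. Ccdc33 read 7.82, 3.27 and 3.09 FPKM in F1-Control at Pd21 and at most 0.324 FPKM in every library of the other groups. It passed the filter at Pd21 only through F1-Control, where it was high, so no test of it is given. Stra6 differed by -0.01 log2 units on that day.

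Of the enzymes, Rdh10 encodes the main retinol dehydrogenase of embryonic tissues. At Pd7 it read 14.1, 11.7 and 11.7 FPKM in F1-Control and 7.77, 7.55 and 8.25 FPKM in F1-HHcy. Every F1-HHcy library lay below every control. Means were 12.5 ± 1.41 and 7.86 ± 0.359 FPKM (SD, n = 3 each), the control mean being 1.59 times the other. By limma Rdh10 fell by 0.60 ± 0.14 log2 units (SE, adjusted p 0.0254, lower in 3 of 3 libraries). That call was lost without F1-Control replicate 1 or any 1 of the F1-HHcy libraries. It was also lost in the fit of all 18 libraries and with no filter on low values. Over 14 settings the adjusted p lay between 0.0162 and 0.116.

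At Pd3 Rdh10 read 14.1, 15.9 and 14.1 FPKM in F1-Control and 8.96, 12.8 and 18.5 FPKM in F1-HHcy. The highest value was that of F1-HHcy replicate 3, and the groups overlapped (-0.18 log2 units, limma adjusted p 0.685). At Pd21 it read 10.9, 9.02 and 13.5 FPKM in F1-Control and 10.2, 7.95 and 11.3 FPKM in F1-HHcy, which also overlapped. The difference between the diet effects was -0.43 log2 units from Pd3 to Pd7 (adjusted p 0.49) and 0.44 from Pd7 to Pd21 (adjusted p 0.391). The means fell in the order 14.7 FPKM in F1-Control at Pd3, 13.4 in F1-HHcy at Pd3, 12.5 in F1-Control at Pd7, 11.1 in F1-Control at Pd21, 9.82 in F1-HHcy at Pd21 and 7.86 in F1-HHcy at Pd7, and all neighbours in it overlapped.

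Aldh1a1 encodes a retinaldehyde dehydrogenase and was the most abundant of the 9 genes in each group's summed FPKM. At Pd3 it read 271, 261 and 239.6 FPKM in F1-Control and 124, 138 and 166 FPKM in F1-HHcy. All F1-HHcy libraries lay below all controls, and replicate 3 lay nearest to them. The means were 257 ± 16.0 and 143 ± 21.5 FPKM (SD, n = 3 each), a ratio of 1.80 of control to F1-HHcy. By limma Aldh1a1 fell by 0.86 ± 0.13 log2 units (SE, adjusted p 0.0279, lower in 3 of 3 libraries). The call was lost without any 1 of the F1-Control libraries and without F1-HHcy replicate 1 or 2. It was also lost with no filter on low values and with the replicate number as a block. Over 14 settings the adjusted p lay between 0.00181 and 0.18.

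At Pd7 Aldh1a1 read 131, 166 and 95.7 FPKM in F1-Control and 170.5, 159 and 186 FPKM in F1-HHcy, with overlap through F1-Control replicate 2 (0.42 log2 units, limma adjusted p 0.185). At Pd21 it read 173, 123 and 190.3 FPKM in F1-Control and 169.6, 216 and 129 FPKM in F1-HHcy. These overlapped widely. The difference between its diet effects at Pd21 and Pd3 was 0.93 log2 units (adjusted p 0.102). F1-Control at Pd3 lay above every other library of the series. The remaining means, 172 FPKM in F1-HHcy at Pd7 and at Pd21, 162 in F1-Control at Pd21, 143 in F1-HHcy at Pd3 and 131 in F1-Control at Pd7, overlapped from neighbour to neighbour.

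The paralog Aldh1a7 lies 49489 bases from Aldh1a1 on chromosome 19, and reads may be shared between the pair, which could not be checked. Aldh1a7 read 21.9, 16.7 and 17.3 FPKM in F1-Control at Pd3 and 5.72, 7.69 and 4.08 FPKM in F1-HHcy. It too fell at Pd3 without overlap of the groups, by 1.55 ± 0.21 log2 units (SE, limma adjusted p 0.0203, lower in 3 of 3 libraries). At Pd7 it read 6.91, 8.97 and 4.64 FPKM in F1-Control and 4.44, 4.32 and 4.14 FPKM in F1-HHcy.

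Aldh1a2 encodes the retinaldehyde dehydrogenase that makes most retinoic acid in the early embryo. At Pd7 it read 144, 134 and 107 FPKM in F1-Control and 46.5, 61.2 and 37.9 FPKM in F1-HHcy. The highest F1-HHcy library was far below the lowest control. Means were 128 ± 18.8 and 48.5 ± 11.8 FPKM (SD, n = 3 each), a ratio of 2.64 of control to F1-HHcy. By limma Aldh1a2 fell by 1.40 ± 0.20 log2 units (SE, adjusted p 0.00403, lower in 3 of 3 libraries), and it was called without each single library. Over 14 settings its adjusted p lay between 0.000651 and 0.0558, the highest with no filter on low values.

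At Pd3 Aldh1a2 read 131, 124 and 133 FPKM in F1-Control and 93.8, 146 and 75.4 FPKM in F1-HHcy, where replicate 2 lay above all controls (-0.35 log2 units, limma adjusted p 0.385). At Pd21 it read 63.2, 45.2 and 39.3 FPKM in F1-Control and 43.8, 22.2 and 39.0 FPKM in F1-HHcy. The groups overlapped on both days. The diet effects differed by -1.05 log2 units between Pd7 and Pd3 (adjusted p 0.24) and by 0.89 between Pd21 and Pd7 (adjusted p 0.198). The groups fell into a high and a low set without overlap. F1-Control at Pd3, F1-Control at Pd7 and F1-HHcy at Pd3 had means of 129, 128 and 105 FPKM, and F1-Control at Pd21, F1-HHcy at Pd7 and F1-HHcy at Pd21 had means of 49.2, 48.5 and 35.0 FPKM.

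Aldh1a3 encodes a retinaldehyde dehydrogenase known from eye and nasal development, and it stayed low in every library, between 1.86 and 4.19 FPKM. Its 3 differences between diets were 0.17 log2 units at Pd3 (limma adjusted p 0.603), 0.40 at Pd7 (adjusted p 0.139) and -0.43 at Pd21. At Pd7 the F1-Control libraries read 2.55, 1.86 and 2.76 FPKM and the F1-HHcy libraries 3.62, 3.75 and 2.95 FPKM. At Pd21 the F1-Control libraries read 3.29, 4.10 and 4.19 FPKM and the F1-HHcy libraries 2.63, 1.97 and 3.34 FPKM. F1-HHcy was higher without overlap at Pd7 and lower with overlap at Pd21, and the difference between those diet effects was -0.82 log2 units (adjusted p 0.0773). The order of means was F1-Control at Pd21, F1-HHcy at Pd7, F1-HHcy at Pd3, F1-HHcy at Pd21, F1-Control at Pd3 and F1-Control at Pd7, and all neighbours overlapped.

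The makeup of the ALDH1A family was compared as each gene's share of the summed FPKM of Aldh1a1, Aldh1a2 and Aldh1a3. At Pd7 the share of Aldh1a1 was 47.2%, 55.0% and 46.5% in F1-Control and 77.3%, 71.0% and 82.0% in F1-HHcy. The groups stood well apart, with means of 49.6% and 76.8%, and Aldh1a2 took nearly all of the rest, 49.5% and 21.7%. With 3 libraries against 3, the smallest 2-sided p of an exact permutation test is 0.1, and both differences at Pd7 gave that p. At Pd3 the Aldh1a1 share was 67.0%, 67.4% and 63.9% in F1-Control and 56.4%, 48.0% and 68.0% in F1-HHcy, which overlapped through replicate 3 (exact p 0.4). The difference of -8.65 points at Pd3 was -13.9 points without F1-HHcy replicate 3, with the remaining libraries apart, and -3.91 points without F1-HHcy replicate 2. At Pd21 the means were 75.0% and 81.3% (exact p 0.3), and the difference of 6.27 points was 1.94 points when F1-HHcy replicate 2 was left out and 9.47 points when F1-Control replicate 3 was. Aldh1a3 took 0.622% in F1-Control and 1.14% in F1-HHcy at Pd3, without overlap (exact p 0.1). It took 0.959% and 1.54% at Pd7 (exact p 0.2) and, the other way, 1.85% and 1.33% at Pd21 (exact p 0.3).

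**Figure D3:**
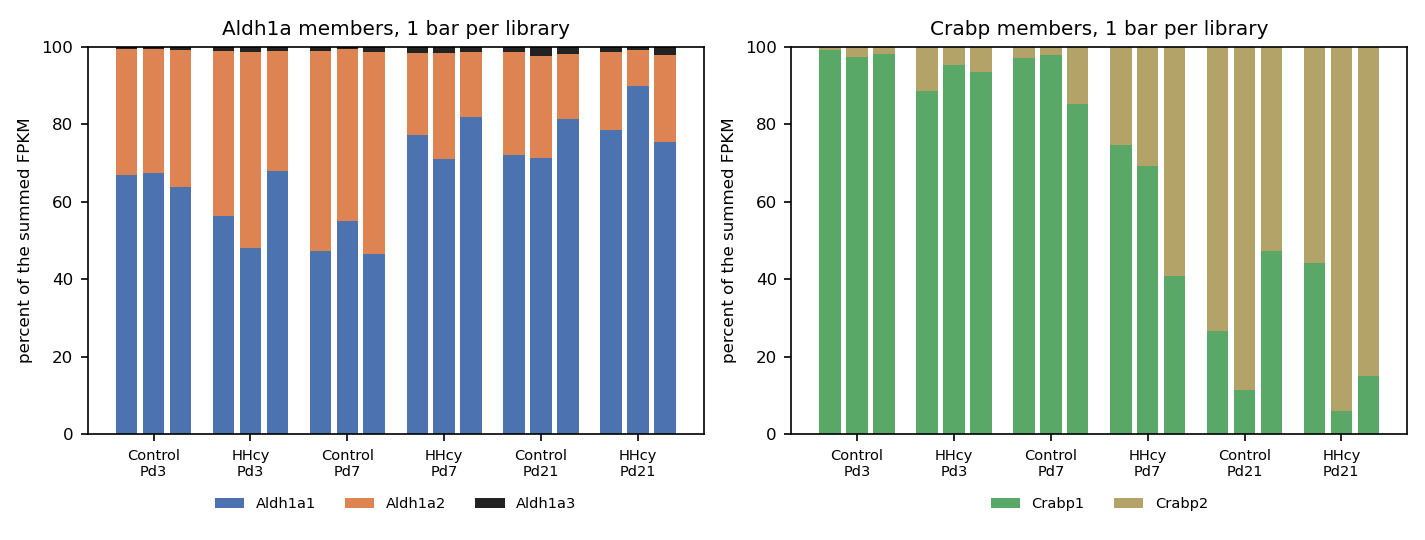
Share of summed FPKM in percent, by library, of the Aldh1a genes among Aldh1a1, Aldh1a2 and Aldh1a3 and of Crabp1 and Crabp2 in their sum. At Pd7 Aldh1a1 makes up a mean of 49.6% in F1-Control and 76.8% in F1-HHcy.

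RNA of both cytosolic proteins that bind retinoic acid was measured. In each diet the mean of Crabp1 fell with age while that of Crabp2 rose. Limma called both changes over the same step only in F1-Control from Pd7 to Pd21, where age and batch run together. Crabp1 encodes cellular retinoic acid-binding protein 1, which binds retinoic acid tightly and limits how much reaches the nucleus. At Pd7 it read 46.6, 62.3 and 19.0 FPKM in F1-Control and 8.44, 8.60 and 4.51 FPKM in F1-HHcy. F1-Control replicate 3 was much the lowest control and still lay above all F1-HHcy libraries. Means were 42.6 ± 21.9 and 7.18 ± 2.32 FPKM (SD, n = 3 each), a ratio of 5.93 of control to F1-HHcy, the largest of any member called. By limma Crabp1 fell by 2.30 ± 0.38 log2 units (SE, adjusted p 0.00695, lower in 3 of 3 libraries) and was called without each single library. Its adjusted p over 14 settings lay between 0.000106 and 0.078, the highest with no filter on low values.

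At Pd3 Crabp1 read 58.1, 60.8 and 59.2 FPKM in F1-Control and 20.8, 31.2 and 47.1 FPKM in F1-HHcy. All F1-HHcy libraries lay below all controls, and replicate 3 was the highest of them. The difference of -0.90 ± 0.26 log2 units (SE) missed the threshold with all libraries (limma adjusted p 0.101) and was called without replicate 3 of F1-HHcy. At Pd21 it read 4.29, 1.90 and 6.99 FPKM in F1-Control and 5.22, 1.26 and 2.41 FPKM in F1-HHcy, which overlapped. The diet effects at Pd7 and Pd3 differed by -1.40 log2 units (adjusted p 0.341) and those at Pd21 and Pd7 by 1.85 (adjusted p 0.119). F1-Control at Pd3, F1-Control at Pd7 and F1-HHcy at Pd3, with means of 59.4, 42.6 and 33.0 FPKM, lay without overlap above F1-HHcy at Pd7, F1-Control at Pd21 and F1-HHcy at Pd21, with 7.18, 4.39 and 2.96 FPKM.

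Crabp2 encodes cellular retinoic acid-binding protein 2, which carries retinoic acid to its receptor in the nucleus. At Pd3 it read 0.473, 1.55 and 1.14 FPKM in F1-Control and 2.7, 1.55 and 3.22 FPKM in F1-HHcy. At Pd7 it read 1.34, 1.26 and 3.25 FPKM in F1-Control and 2.87, 3.83 and 6.51 FPKM in F1-HHcy. F1-HHcy read higher on average on both days, touching the controls at Pd3 and overlapping them at Pd7 through F1-Control replicate 3. The differences of 0.77 ± 0.26 log2 units (SE, limma adjusted p 0.148) at Pd3 and 0.88 ± 0.29 (adjusted p 0.0777) at Pd7 missed the threshold, and the latter was called without F1-Control replicate 3. At Pd21 Crabp2 read 11.8, 14.9 and 7.82 FPKM in F1-Control and 6.63, 19.5 and 13.7 FPKM in F1-HHcy. Both Pd21 groups, with means of 11.5 and 13.3 FPKM, lay above all libraries of Pd3 and Pd7, whose means of 4.40, 2.49, 1.95 and 1.05 FPKM, in F1-HHcy at Pd7, F1-HHcy at Pd3, F1-Control at Pd7 and F1-Control at Pd3, overlapped in that order.

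As a share of the summed FPKM of Crabp1 and Crabp2, Crabp1 made up 97.2%, 98.0% and 85.4% in F1-Control at Pd7 and 74.7%, 69.2% and 40.9% in F1-HHcy. The groups did not overlap (exact p 0.1, the smallest possible). At Pd3 the means were 98.3% and 92.5%, also without overlap (exact p 0.1), and at Pd21 they were 28.4% and 21.7% (exact p 0.7). The difference at Pd3, -5.82 points, was -3.84 without F1-HHcy replicate 1. That at Pd21, -6.73 points, turned to 2.66 points when F1-Control replicate 3 was left out and to 1.08 points when F1-HHcy replicate 2 was. It stayed below 0 with any other library left out, and was largest in size, -17.9 points, without F1-HHcy replicate 1.

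Over age, limma in the fit of all 18 libraries called 3 of 8 members between Pd3 and Pd7 in F1-Control, Ttr left aside, against 11.4% of the 14607 genes tested. Rbp4 rose by 1.21 log2 units (adjusted p 0.0061), Stra6 rose by 0.76 (adjusted p 0.0358) and Aldh1a1 fell by 1.00 (adjusted p 0.00822), each without overlap of the Pd3 and Pd7 libraries, so in 3 of 3. Stra6 was not called without F1-Control replicate 1 or 2 at Pd3 or replicate 1 at Pd7, which left 2 members, and neither Stra6 nor Aldh1a1 without F1-Control replicate 3 at Pd7, which left 1. Stra6 was also not called with no filter on low values. In F1-HHcy 2 of the 8 were called between those days, against 5.48% of all genes. Crabp1 fell by 2.03 log2 units (adjusted p 0.022) and Aldh1a2 by 1.07 (adjusted p 0.0325), both lower in 3 of 3 Pd7 libraries. With all libraries 4 of the 8 members had an unadjusted p under 0.05 there. Of the 14183 genes that reached 1 FPKM on more than 1 day, 3332 had such a p. Limma called 0 members there without F1-HHcy replicate 2 or 3 at Pd3 or replicate 1 or 2 at Pd7. Without F1-HHcy replicate 3 at Pd7 it called only Stra6. Without F1-HHcy replicate 1 at Pd3, Rdh10 was added, and with no filter on low values 0 members were called.

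Between Pd7 and Pd21, where age and batch run together, 4 of the 8 members were called in F1-Control, against 30.3% of all genes. Crabp1 fell by 2.98 log2 units (adjusted p 0.000147) and Aldh1a2 by 1.38 (adjusted p 0.0011), while Crabp2 rose by 2.11 (adjusted p 0.000514), each in 3 of 3 libraries. Aldh1a3 rose by 0.52 (adjusted p 0.0327, all Pd21 libraries above all Pd7 libraries). It was lost without F1-Control replicate 1 or 2 at Pd7, without replicate 2 or 3 at Pd21 and with no filter on low values, which left 3 members. In F1-HHcy 2 of the 8 were called over the same step, against 19.6% of all genes, namely Stra6, which rose by 1.09 (adjusted p 0.00502), and Crabp2, by 1.35 (adjusted p 0.0184), each higher in 3 of 3 libraries. Crabp2 was lost without F1-HHcy replicate 1 or 2 at Pd7 or replicate 2 or 3 at Pd21, which left 1 member, and Crabp1 was added as lower without F1-HHcy replicate 1 at Pd21. Ttr reached 1 FPKM in 5 Pd21 libraries only, and all Pd3 and Pd7 libraries lay at or below 0.0862 FPKM, so it passed the filter of this fit only through the day on which it was high and is not counted.

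For the members whose 6 group means on log2(FPKM + 1) spanned over 2 log2 units and that were tested on all days, Crabp1 and Crabp2, the genes with the nearest profile were sought among 14607. Likeness was the RMS difference over 18 libraries after each gene's own mean was taken off. Nearest to Crabp1 were Syce1 at 0.331 log2 units, Smc1b at 0.335 and Sohlh1 at 0.369. Syce1 encodes a protein of the synaptonemal complex, Smc1b a meiotic cohesin and Sohlh1 a transcription factor of early oocytes. Nearest to Crabp2 were Fscn1 at 0.352, Mycl at 0.360 and Mras at 0.366.

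**Figure D4:**
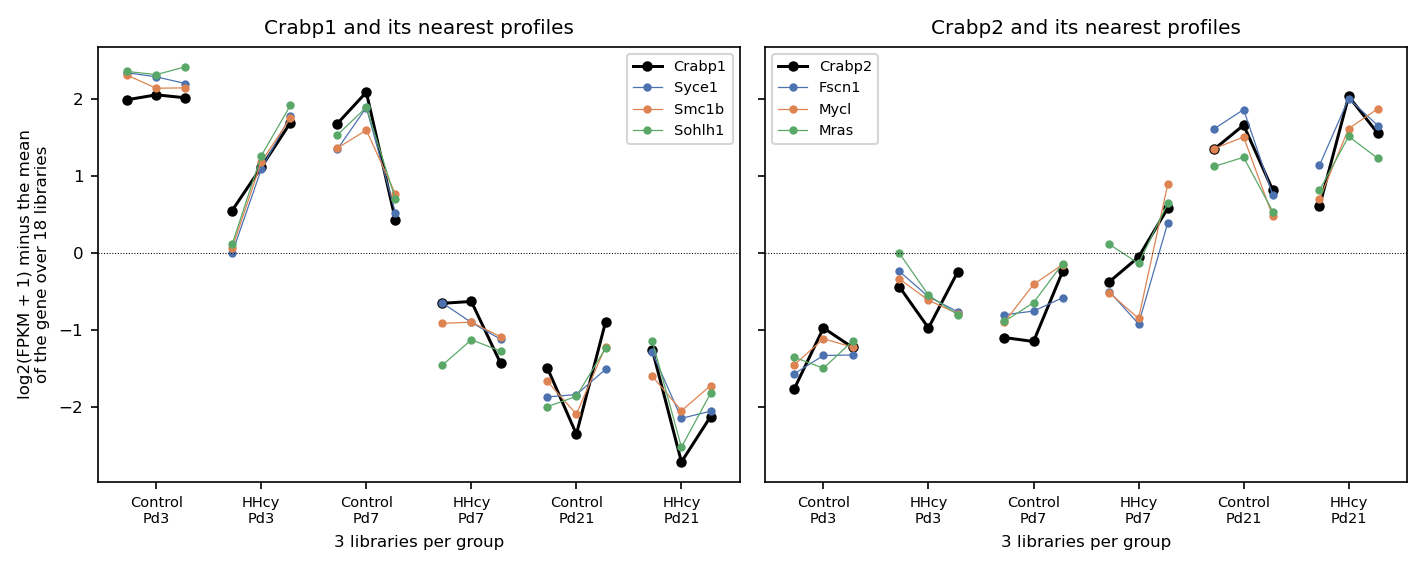
Profiles over the 18 libraries, as log2(FPKM + 1) less each gene's mean, of Crabp1 and Crabp2 with the 3 genes nearest to each. Syce1 lies 0.331 log2 units (RMS) from Crabp1, and Fscn1 0.352 from Crabp2.

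Promoter sequence was looked at because Crabp1 and Aldh1a2 fell together at Pd7 and because retinoic acid receptors bind repeats of a short half-site. The RefSeq promoter table of GRCm38.p6 held 5 of the 9 members, with 10 promoters, and lacked Crabp2, Rdh10, Aldh1a3 and Ttr. Each promoter of 300 bases, 250 before the start and 50 after it, was searched on both strands for the half-site AGGTCA and for direct repeats of it with 1, 2 or 5 bases between. Of the members' promoters 0 of 10 held the half-site, while 16.3% of all 32851 promoters did. Only exact copies of AGGTCA were counted, so sites of any other sequence were missed. Also, 10 promoters are too few to tell 0 from a share of 16.3%. The count therefore does not show whether the members lack sites for these receptors. Direct repeats with 1, 2 and 5 bases between were in 0.0396%, 0.00913% and 0.00913% of all promoters. Of the 56 other retinoid genes described below, 44 were in the table, 13 of them with a half-site and 1, Bco1, with a direct repeat. Counted by promoter, 13 of their 61 held a half-site. The 250 bases before the start are shown for both members that fell most at Pd7, Crabp1 at chr9:54764498-54764747 and Aldh1a2 at chr9:71215539-71215788. Stra8, a textbook retinoic acid target at chr6:34920698-34920947, is shown beside them for its half-sites, and all 3 lie on the plus strand. Half-sites are in capitals, and the Stra8 ones begin at -194 and -38 from the start. Of the bases shown 63.6% were G or C for Crabp1 and 77.6% for Aldh1a2, against a median of 52.4% for all promoters. Stra8 itself read at most 0.126 FPKM in any library.
Crabp1: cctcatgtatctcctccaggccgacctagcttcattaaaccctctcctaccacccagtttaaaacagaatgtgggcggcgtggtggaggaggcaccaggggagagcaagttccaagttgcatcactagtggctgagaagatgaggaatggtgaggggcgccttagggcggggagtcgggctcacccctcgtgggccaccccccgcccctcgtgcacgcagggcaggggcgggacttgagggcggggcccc
Aldh1a2: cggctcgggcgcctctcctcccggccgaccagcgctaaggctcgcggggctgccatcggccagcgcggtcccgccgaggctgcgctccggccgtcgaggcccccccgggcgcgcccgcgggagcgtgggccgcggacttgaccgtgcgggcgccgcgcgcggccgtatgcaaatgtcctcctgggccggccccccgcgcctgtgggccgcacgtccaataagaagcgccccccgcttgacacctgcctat
Stra8: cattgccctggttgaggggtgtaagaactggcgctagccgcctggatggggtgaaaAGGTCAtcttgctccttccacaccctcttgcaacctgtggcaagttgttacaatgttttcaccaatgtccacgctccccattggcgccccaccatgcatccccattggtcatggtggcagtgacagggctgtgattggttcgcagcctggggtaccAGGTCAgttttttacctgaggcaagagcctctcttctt

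Beyond the members, 56 other retinoid genes were listed by role, and 56 of 56 were in the files. At Pd3, 33 were tested and 3 were called, against 3.07% of all genes tested, with a median change of 0.12 log2 units against -0.03 over all genes tested. Rxra, a nuclear receptor that pairs with retinoic acid receptors, was the only 1 higher, with 7.98, 8.85 and 7.88 FPKM in F1-Control and 11.9, 11.9 and 13.5 FPKM in F1-HHcy. The groups did not overlap, and Rxra rose by 0.54 log2 units (limma adjusted p 0.0486, 3 of 3 libraries). Lower were Aldh1a7 and Rec8, a meiotic cohesin induced by retinoic acid, which read 23.4, 24.6 and 29.8 FPKM in F1-Control and 5.99, 12.5 and 4.01 FPKM in F1-HHcy. Rec8 fell by 1.78 log2 units (adjusted p 0.0392, 3 of 3 libraries). With hemoglobin genes left out Rxra was not called. Limma called 0 of the 33 genes without any 1 of the F1-Control libraries, 1 without F1-HHcy replicate 1, 2 without replicate 2 and 14 without replicate 3, and Rxra was among them only without replicate 3.

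At Pd7, 34 of the other retinoid genes were tested, 33 of them with 1 FPKM reached in both diets. Of the 33, 6 were called as higher and 3 as lower, against 10.7% of all such genes called, with a median of 0.16 log2 units against -0.0024. The largest rise was that of Cyp2s1, a cytochrome P450 reported to oxidise retinoic acid, with 7.96, 5.83 and 14.3 FPKM in F1-Control and 24.0, 29.9 and 32.0 FPKM in F1-HHcy. The groups did not overlap, and Cyp2s1 rose by 1.59 log2 units (limma adjusted p 0.00684, 3 of 3 libraries). The other rises, each called by limma and each in 3 of 3 libraries above all controls, were those of Adh1, an alcohol dehydrogenase that acts on retinol (1.50, adjusted p 0.015), and Scarb1, a lipoprotein receptor that takes up carotenoids (1.00, adjusted p 0.00716). Nrip1, a corepressor (0.85, adjusted p 0.0222), Rdh12, a retinaldehyde reductase (0.66, adjusted p 0.0343), and Lipe, a lipase that frees stored retinol (0.52, adjusted p 0.0485), also rose in 3 of 3.

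Bco1, the enzyme that splits carotene, read 4.75, 7.77 and 2.73 FPKM in F1-Control at Pd7 and 0.753, 0.876 and 0.941 FPKM in F1-HHcy. It passed the filter only through F1-Control, where it was high, so its difference of -1.63 log2 units is not counted, and it was not tested without any 1 of the F1-Control libraries. The targets Rarres1, Rec8 and Tgm2 fell by 1.58 (adjusted p 0.00322), 1.30 (adjusted p 0.0135) and 0.64 (adjusted p 0.0196), each in 3 of 3 libraries. The Rarres1 libraries read 4.65, 5.47 and 3.41 FPKM in F1-Control and 1.31, 0.590 and 0.650 FPKM in F1-HHcy. Bco1 left aside, 9 genes were called with all libraries. The count was 7, 6 and 8 without F1-Control replicate 1, 2 or 3, and 3, 5 and 5 without F1-HHcy replicate 1, 2 or 3. Without F1-Control replicate 3, Aldh1a7 was added to the calls as lower, and Lipe and Rdh12 were lost. Only Cyp2s1, Scarb1 and Rarres1 were called without each single library. Lipe was not called without any 1 library, with hemoglobin genes left out, or with a pseudocount of 0.1. With no filter on low values limma called 0 of these genes at Pd3 and 0 at Pd7. In the fit of all 18 libraries Rec8, Tgm2 and Lipe were not called at Pd7, and Rarb was called as lower. Limma-voom did not call Rdh12.

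At Pd21, 32 were tested, and of the 31 besides Rbp2 limma called 0, as did limma-voom, against 0.741% of all genes with 1 FPKM reached in both diets. The median was -0.12 log2 units against -0.0069, and 4 of 31 had an unadjusted p under 0.05, against 654 of 13084 such genes. Rbp2, a retinol-binding protein known from the gut, read 4.93, 1.06 and 3.46 FPKM in F1-Control, and it was listed at 0, 0 and 0.0378 FPKM in F1-HHcy. No fold is given since its F1-HHcy libraries lay at the floor. Rbp2 passed the filter only through its 3 F1-Control libraries, where it was high, so no test of it is given, and with no filter on low values it was not called. Without F1-Control replicate 2 limma called Cyp2s1 as lower.

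**Figure D5:**
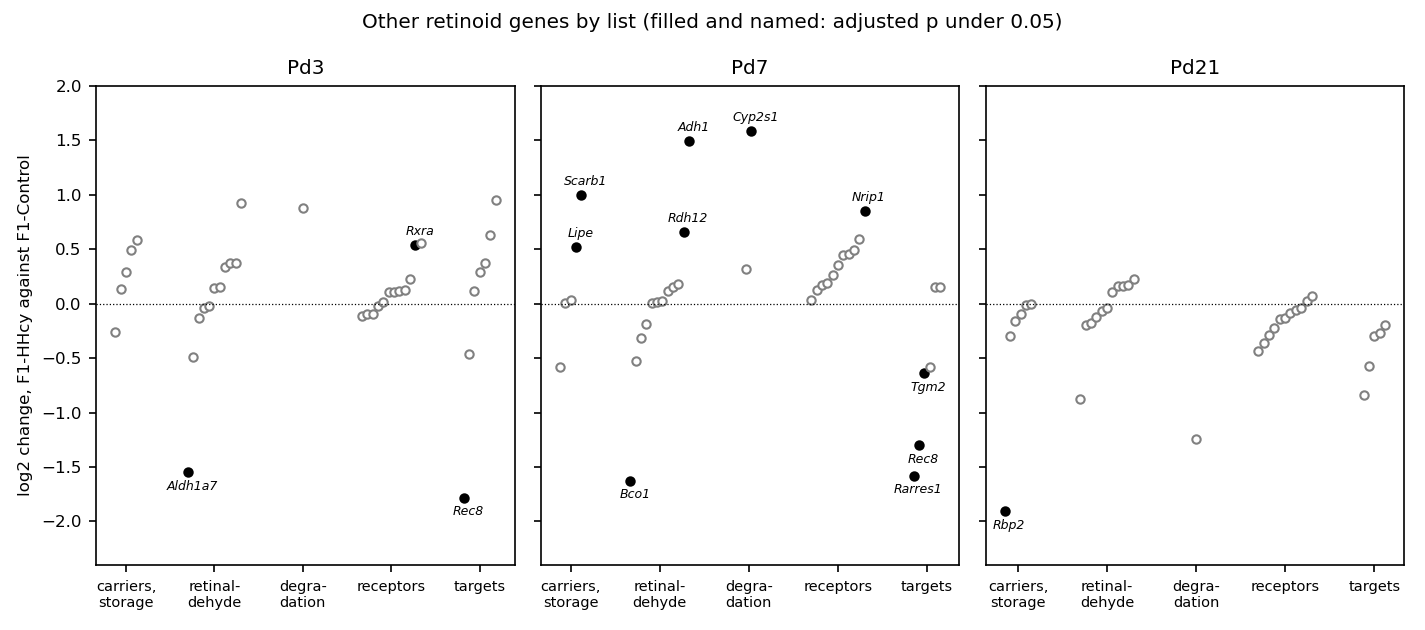
Log2 change between F1-HHcy and F1-Control of the other retinoid genes tested on each day, grouped by role, with called genes filled and named. At Pd7 6 are called as higher, up to Cyp2s1 at 1.59, and 4 as lower, down to Bco1 at -1.63, which passed the filter through F1-Control alone.

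Counts by role and of the markers below stand against 2.49%, 10.7% and 0.741% called at Pd3, Pd7 and Pd21 over all genes with 1 FPKM reached in both diets. By role, 0 of 5 carriers and storage genes were called at Pd3 (median 0.29 log2 units), 2 of 5 at Pd7, both higher (median 0.04), and 0 of 5 besides Rbp2 at Pd21 (median -0.09). Fabp5 was the most abundant of them in each group. Of the genes of retinaldehyde formation and reduction, 1 of 11 was called at Pd3, lower (median 0.15), 2 of 11 besides Bco1 were called at Pd7, both higher (median 0.03), and 0 of 11 were called at Pd21 (median -0.04). Adh5 was the most abundant there in each group, and Dhrs3, which reduces retinaldehyde, read between 6.13 and 15.2 FPKM. For the degradation of retinoic acid, 0 of 1 gene was called at Pd3 (0.88), 1 of 2 at Pd7, higher (median 0.96), and 0 of 1 at Pd21 (-1.24). Cyp2s1 was the most abundant of that list, while Cyp26a1, the main enzyme known to clear retinoic acid, read at most 0.760 FPKM and Cyp26b1 at most 1.84 FPKM.

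Of the receptors and coregulators, 1 of 12 was called at Pd3, higher (median 0.11 log2 units), 1 of 11 at Pd7, higher (median 0.35), and 0 of 11 at Pd21 (median -0.13). Rxrb was their most abundant gene in F1-Control on each day. Among the retinoic acid receptors Rara read between 5.03 and 12.9 FPKM, Rarg between 1.96 and 10.4 FPKM and Rarb between 0.0755 and 1.40 FPKM. Of the target genes, 1 of 7 was called at Pd3, lower (median 0.29), 3 of 6 at Pd7, all lower (median -0.61), and 0 of 5 at Pd21 (median -0.29). Rarres2 was the most abundant target in each group.

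Markers of ovarian cell types were followed beside the members, and their part in the results was not tested. At Pd7 6 of 10 germ cell markers fell and 1 rose, with a median of -1.07 log2 units, on the day that Crabp1 fell. Sohlh1, one of the genes nearest to Crabp1, read 51.7, 66.6 and 28.6 FPKM in F1-Control at Pd7 and 5.61, 7.33 and 6.52 FPKM in F1-HHcy. Sycp3, of the synaptonemal complex, read 103, 112 and 44.9 FPKM in F1-Control and 13.2, 12.0 and 14.2 FPKM in F1-HHcy. Oosp1, the marker that rose, read 83.7, 102 and 101 FPKM in F1-Control and 209, 181 and 149 FPKM in F1-HHcy. The germ cell sums were 901, 1404 and 1092 FPKM in F1-Control and 729, 623 and 924 FPKM in F1-HHcy, overlapping slightly, with Zp3 the most abundant in both and no marker at 0. At Pd3 2 of 10 germ cell markers were called, Gdf9 and Zp3, both higher, with a median of -0.63, and sums of 746, 831 and 785 FPKM against 869, 1038 and 926 FPKM. At Pd21 0 of 10 were called (median 0.05), with sums of 1397, 1013 and 967 FPKM against 1408, 1019 and 1385 FPKM.

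The ovarian surface epithelium list holds Aldh1a2 itself. At Pd7 6 of its 10 markers fell, with a median of -1.39 log2 units, and the 5 besides Aldh1a2 were Krt7, Krt8, Krt18, Krt19 and Lgals7. Without Aldh1a2 the list summed to 837, 1024 and 558 FPKM in F1-Control at Pd7 and to 345, 458 and 244 FPKM in F1-HHcy. The groups did not overlap, on the day that Aldh1a2 fell. Krt19 was the most abundant in F1-Control and Upk3b in F1-HHcy, and no marker was at 0. At Pd3 0 of 10 were called (median -0.27), and without Aldh1a2 the sums were 754, 831 and 799 FPKM against 505, 827 and 532 FPKM. At Pd21 1 of 10 was called, Krt18, lower (median -0.96), with sums of 544, 406 and 547 FPKM against 269, 149 and 275 FPKM, which did not overlap.

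The theca and steroidogenic list holds Aldh1a1. At Pd3 4 of its 8 markers were tested, of which Ptch1 rose and Aldh1a1 fell (median 0.49 log2 units). Without Aldh1a1 the list summed to 129.7, 107 and 162 FPKM in F1-Control at Pd3 and to 713, 369.9 and 89.2 FPKM in F1-HHcy, where replicate 3 lay below all controls. At Pd7 6 of 7 rose, all but Aldh1a1 (median 1.71), with Insl3 left aside since it passed the filter through F1-HHcy alone. Without Aldh1a1 the sums were 233, 301 and 468 FPKM against 1196, 1230.3 and 1172 FPKM. Those groups stood far apart, with Hsd3b1 the most abundant in both. At Pd21 0 of 7 were called (median -0.19), with sums of 1132, 604 and 1052 FPKM against 1295, 1788 and 694 FPKM.

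Granulosa markers showed 2 of 8 higher at Pd3, Inha and Amh (median 0.01 log2 units), with sums of 609.5, 531 and 661 FPKM in F1-Control and 806, 630.2 and 537 FPKM in F1-HHcy. At Pd7 2 of 10 were higher, Nr5a2 and Inha, and 1 lower, Gatm (median 0.64), with sums of 527, 539 and 812 FPKM against 828, 792 and 1169 FPKM. At Pd21 0 of 10 were called (median 0.11), with sums of 1604, 1413 and 1310.5 FPKM against 1394, 1842 and 1552 FPKM. The most abundant were Gatm in F1-Control at Pd3, Kctd14 in F1-HHcy at Pd3 and F1-Control at Pd7, and Inha in the other groups. Of the stroma and mesenchyme markers 3 of 8 rose at Pd3, Pdgfra, Lum and Nr2f2 (median 0.86), with sums of 659, 889 and 825 FPKM against 1261, 1404 and 1139 FPKM, which did not overlap. At Pd7 1 of 8 rose, Nr2f2 (median -0.01), with sums of 1537, 1447 and 1244 FPKM against 1243, 1388 and 875 FPKM, and at Pd21 0 of 8 were called (median -0.22), with sums of 832, 1062 and 1348 FPKM against 947, 597 and 757 FPKM. Dcn was the most abundant in F1-Control at Pd7 and Col3a1 in the other groups.

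Erythroid markers followed the diet at both early ages, led by Hbb-bs. At Pd3 7 of 7 fell (median -3.21 log2 units), and the list summed to 11288, 6407 and 3941 FPKM in F1-Control and to 862, 1108 and 784 FPKM in F1-HHcy. At Pd7 5 of 5 tested fell (median -2.50 log2 units), with sums of 5791, 1555 and 925 FPKM against 287, 502 and 429.8 FPKM. No group overlapped on those days. Hemoglobin genes made up 2.47%, 1.42% and 0.961% of all FPKM in F1-Control at Pd3 and 0.196%, 0.258% and 0.190% in F1-HHcy. With hemoglobin genes left out and the rest rescaled, limma called the same members at Pd3, Rbp4 and Aldh1a1, and at Pd7, Aldh1a2, Crabp1 and Rdh10. At Pd21 0 of 5 were called (median 0.34), with sums of 109, 554 and 270.3 FPKM against 211, 159 and 997 FPKM.

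Lists of oviduct, multiciliated, adipocyte and adrenal markers were followed for tissue next to the ovary. Whether the RNA of each list came from such tissue or from the ovary itself was not tested. Of the oviduct and Mullerian markers 0 of 7 were called at Pd3 (median -0.04 log2 units), 2 of 7 fell at Pd7, Epcam and Pax8 (median -0.31), and 2 of 6 fell at Pd21, Ovgp1 and Cldn3 (median -2.05), with Pax8 left aside since it passed the filter there through F1-Control alone. Ovgp1, made by the oviduct, read 216, 37.5 and 365 FPKM in F1-Control at Pd21 and 2.10, 0.370 and 1.12 FPKM in F1-HHcy. The oviduct sums at Pd21 were 385, 124 and 615 FPKM against 94.9, 37.5 and 58.4 FPKM, without overlap, with Ovgp1 the most abundant in F1-Control and Emx2 in F1-HHcy. At Pd3 they were 110.2, 145 and 108 FPKM against 61.0, 90.8 and 115 FPKM, and at Pd7 81.1, 79.2 and 62.0 FPKM against 64.5, 53.4 and 56.6 FPKM, with Crisp1 at 0 in F1-Control at Pd3. Epcam was the most abundant in both groups at Pd3 and in F1-Control at Pd7, and Emx2 in F1-HHcy at Pd7.

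Of 10 multiciliated markers 9 were in the files. At Pd3 0 of 5 tested were called (median 0.17), at Pd7 1 of 5 rose, Tppp3 (median -0.14), and at Pd21 4 of 5 fell (median -3.02). Foxj1, Dnah5 and Sntn are left aside at Pd21, since they passed the filter through F1-Control alone. The Pd21 sums were 503, 194 and 283 FPKM in F1-Control, led by Tppp3, and 117, 86.0 and 112 FPKM in F1-HHcy, led by Ccno, without overlap. At Pd3 the sums were 64.4, 58.1 and 66.5 FPKM against 64.1, 60.5 and 70.7 FPKM, and at Pd7 51.9, 70.5 and 66.1 FPKM against 55.1, 45.5 and 75.5 FPKM, with Sntn at 0 in F1-Control at Pd3. Ccno was the most abundant in each group at Pd3 and Pd7, and it read between 25.6 and 98.9 FPKM over the 18 libraries.

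Adipocyte markers were low at Pd3, where 2 of 10 were tested and 1 was called, Rbp4 itself (median 1.22), and Lep, Cfd and Pck1 were at 0 in F1-Control. At Pd7 1 of 4 rose, Plin1 (median 0.32), besides Cfd, which passed the filter through F1-HHcy alone, and without Rbp4 the sums were 5.23, 11.7 and 17.9 FPKM against 16.9, 24.4 and 26.9 FPKM. At Pd21 Cidea passed the filter through F1-Control alone, and of the other 8 limma called 0 (median -1.70). Of these 8, 5 had an unadjusted p under 0.05, against 654 of 13084 genes with 1 FPKM reached in both diets. Without Rbp4 the sums were 117, 61.0 and 354 FPKM against 85.0, 15.9 and 8.57 FPKM, with Fabp4 the most abundant in F1-Control. Of the hepatocyte markers, 9 of 10 in the files, 0 of 1 tested was called at Pd3 (2.56), 1 of 2 rose at Pd7, Apoa1 (median 0.19), and 0 of 3 were called at Pd21 (median 0.03). Apoa1 led this list in each group, and without Ttr the sums were 2.69, 3.22 and 5.46 FPKM against 57.2, 26.7 and 12.1 FPKM at Pd3 and 21.3, 27.5 and 42.2 FPKM against 44.0, 50.5 and 52.3 FPKM at Pd7. Fga was at 0 in F1-HHcy at Pd3 and in both groups at Pd7, and Apob in F1-HHcy at Pd7 and Pd21.

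Adrenal cortex markers stayed between sums of 2.96 and 11 FPKM, with Cyp11b2 at 0 in 5 of the 6 groups. At Pd3 0 of 1 besides Akr1b7, which passed the filter through F1-Control alone, was called (0.42 log2 units), at Pd7 1 of 1 rose, Mrap (1.20), and at Pd21 0 of 1 was called (-0.14). Of the endothelial markers, led by Emcn, 0 of 6 were called at Pd3 (median 0.64), 1 of 7 rose at Pd7, Tie1 (median 0.19), and 0 of 7 were called at Pd21 (median -0.08). Their sums at Pd3 were 38.1, 53.9 and 51.6 FPKM in F1-Control and 98.4, 79.8 and 67.5 FPKM in F1-HHcy. Those at Pd7 were 81.3, 77.7 and 92.4 FPKM against 101, 101 and 93.4 FPKM, and at Pd21 72.7, 70.9 and 81.9 FPKM against 78.6, 68.4 and 64.7 FPKM. Macrophage markers, led by C1qb, had 0 of 6 called at Pd3 besides Adgre1, which passed through F1-HHcy alone (median 0.32), 0 of 7 at Pd7 (median -0.28) and 0 of 6 at Pd21 (median -0.15). Their sums at Pd3 were 27.7, 33.3 and 27.9 FPKM in F1-Control and 39.6, 39.8 and 36.6 FPKM in F1-HHcy, without overlap. At Pd7 they lay the other way without overlap, at 49.4, 51.0 and 38.8 FPKM against 33.5, 36.5 and 31.2 FPKM. At Pd21 they were 35.3, 48.2 and 36.1 FPKM against 35.4, 29.2 and 37.8 FPKM, which overlapped.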

How the data were processed

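Whole ovaries of F1 females were measured in 18 libraries, 3 for each of 6 groups of diet and day. The authors deposited FPKM values for each gene and library, scaled by gene length and library total, though the files themselves do not name the unit. The submitters' processing notes name FastQC 0.11.9, Trimmomatic 0.39, STAR 2.7.9a, featureCounts 2.0.1 of Subread, DESeq2 1.36.0 and the build GRCm38/mm10. From these files, limma 3.58.1 in R 4.3.3 was run with a mean trend on log2(FPKM + 1), per day for diet and on all 18 libraries for age and for differences between diet effects. Genes needed 1 FPKM in 3 libraries of the fit, and p was adjusted over all genes of a contrast. Fragments per gene were recovered as whole numbers from the FPKM to give depth and input for limma-voom. Shares were compared by exact permutation in scipy 1.17.1, run under Python 3.11.15 with pandas 2.3.3 and numpy 2.4.6, and figures were drawn in matplotlib 3.10.9. The limma test of diet within each day was tried on simulated data.

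Alternatives tried were a pseudocount of 0.1, no filter, 1 fit of all days for the diet effect and a block for replicate number. Others were hemoglobin genes left out, median-ratio scaling, limma-voom, a looser rule and each library left out. Mitochondrial genes were to be left out with hemoglobin genes and were sought by symbols that begin with mt-. Such symbols made up 0.0% of FPKM in every library, so no mitochondrial gene was left out. Whether these genes were listed under other symbols was not checked. The members and lists were chosen with earlier results of these data known. Members are named in every library. Of the other lists, genes with an adjusted p under 0.05 for diet are named, at most 4 of a list and day with the smallest p, with the most abundant gene of a list and Aldh1a7, Dhrs3, Cyp26a1, Cyp26b1, Stra8, Rara, Rarb and Rarg, and 1 further gene of this rule is not reported here. Genes that reached 1 FPKM only in libraries of 1 diet, or of 1 day for age, or of 1 group for differences between diet effects, were left out of the list counts and medians, a choice made after the results were seen. Ttr, at 1 FPKM or more only at Pd21, was likewise left out of the member counts for age and for differences between diet effects. Nearest profiles are given as the 3 nearest genes, and other genes named beside these were chosen after their values were seen.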

Additional observations from a re-analysis of the deposited data

Results flagged for a closer look

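Differences between days in the diet effect, F1-HHcy less F1-Control, were tested by limma on all 18 libraries. Between Pd7 and Pd3, both in batch 1, 0 of 8 members and 0 of 35 other retinoid genes were called. Ttr and Rbp2 were left aside there, and 0.411% of all genes were called. With all libraries, retinoid genes were called only where Pd21 was set against an earlier day, and there age and batch cannot be told apart. Between Pd21 and Pd3 the effect on Rbp4 differed by -1.48 log2 units (adjusted p 0.0187), the only member among them. The effect on Aldh1a7 differed by 1.48 (adjusted p 0.0224), on Cyp2s1 by -2.12 (adjusted p 0.0242), on Rarg by -0.99 (adjusted p 0.026), on Rxra by -0.76 (adjusted p 0.0283) and on Tgm2 by -1.79 (adjusted p 0.0173). These were 5 of 35 other retinoid genes, Rbp2 left aside, against 3.42% of all genes that reached 1 FPKM in more than 1 group. With all libraries 9 of the 35 had an unadjusted p under 0.05. Of the 14398 genes that reached 1 FPKM in more than 1 group, 2154 had such a p. Limma called 0 of the 35 without F1-Control replicate 1 at Pd3 or F1-HHcy replicate 2 at Pd21. Only Tgm2 was called without F1-Control replicate 1 at Pd21 and only Aldh1a7 without its replicate 3, and Cyp2s1, Rxra and Tgm2 were called without its replicate 2. Without F1-HHcy replicate 1 at Pd3 the calls were Aldh1a7 and Rxra, and without its replicate 2 Adh1, Aldh1a7 and Cyp2s1. Rxra was lost without F1-Control replicate 3 at Pd3 or F1-HHcy replicate 1 at Pd21, Aldh1a7 without F1-HHcy replicate 3 at Pd21, and Aldh1a7 and Cyp2s1 with no filter on low values. Between the same days the diet effect was also called as lower for 5 of 7 oviduct and 5 of 6 multiciliated markers. It was lower for 2 of 8 adipocyte markers, Rbp4 among them, and higher for 3 of 7 erythroid markers. The part of these markers was not tested.

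Between Pd21 and Pd7 the effect on Adh1 differed by -2.38 log2 units (limma adjusted p 0.0195) and on Bco1 by 1.54 (adjusted p 0.0285). That on Cyp2s1 differed by -2.83 (adjusted p 0.0032), which made 3 of 35 against 2.81%. The mean of Bco1 was 5.08 FPKM in F1-Control at Pd7 and 0.857 in F1-HHcy. At Pd21 its means were 0.505 and 0.423 FPKM. The Bco1 call rests on the group where it was high, so no conclusion is drawn from it. Only Cyp2s1 was called without F1-Control replicate 2 or F1-HHcy replicate 1 or 2 at Pd7, without F1-Control replicate 1 or 3 at Pd21, and with no filter on low values. Bco1 was also lost without F1-Control replicate 1 or F1-HHcy replicate 3 at Pd7 or F1-Control replicate 2 at Pd21, and Adh1 without F1-HHcy replicate 2 or 3 at Pd21. Without F1-HHcy replicate 1 at Pd21 there were 6 called. Rbp2 reached 1 FPKM only in the 3 F1-Control libraries at Pd21, so it passed the filter through the group where it was high and was not tested without any 1 of them. Its differences of -1.83 between Pd21 and Pd3 and -1.97 between Pd21 and Pd7 are not counted here. Groups of 3 libraries were too small to be tested for a single extreme library.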

How the results depend on the processing

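Of 1284 log2 changes of members with 1 library left out, 31 turned direction, 43 lost their call and 20 gained one, and of 452 under other alternatives 5 turned, 14 lost a call and 13 gained one. Of 378 counts and shares with a library left out 98 moved, by over 1.5 times for a count or 1 SD for a share, and all 98 were counts, though some shares moved by over 1.5 times within 1 SD. Of 128 counts under other alternatives 32 moved. No called change turned direction, and the cause was not tested.

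With no filter, limma called 0 members at Pd3 and 0 at Pd7, 0, 91 and 37 genes at Pd3, Pd7 and Pd21, and 0 other retinoid genes on each day. It called 3 members for age from Pd7 to Pd21 in F1-Control, and 0 members and 259 genes from Pd3 to Pd7 in F1-HHcy. The looser rule took 5, 5 and 1 members, and 1293 genes and 5 other retinoid genes at Pd3. At Pd21 it took 686 genes, with Adh1, Cyp2s1 and Tgm2 of the other retinoid genes, Rbp2 left aside. All 18 libraries in 1 model gave 881 genes at Pd3, and 498 genes and 1 member, Ttr, at Pd21, a call not counted because libraries at the floor entered its SE. A pseudocount of 0.1 gave 1 member whose diet effect differed between Pd7 and Pd3, and turned that difference for Crabp2 to -0.050. Median-ratio scaling gave 1 such member and 94 genes, and turned Stra6 at Pd21 to 0.044, Aldh1a2 and Aldh1a3 from Pd3 to Pd7 in F1-Control to 0.049 and 0.033, and Aldh1a1 from Pd7 to Pd21 in F1-HHcy to 0.022.

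With the replicate number as a block, 0 members, 1 gene and 0 other retinoid genes were called at Pd3, and 5 members at Pd7. At Pd21, Rbp2 left aside, the block called Cyp2s1 of the other retinoid genes. The block gave 1 member and 28 genes whose diet effect differed between Pd7 and Pd3, and 474 genes from Pd3 to Pd7 in F1-HHcy. The numbers were not shown to pair the libraries, since 0 of 3 same-number pairs on each day had a correlation of deviations over 0.1, and 0, 3 and 0 of 6 libraries matched their own number best at Pd3, Pd7 and Pd21.

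With each library left out in turn, counts at Pd3 ran from 0 to 4 members, 0 to 2824 genes and 0 to 14 other retinoid genes. They ran from 493 to 1845 genes and, Bco1 left aside, 3 to 8 other retinoid genes at Pd7. At Pd21 they ran from 1 to 185 genes and 0 to 1 other retinoid genes. Diet effects that differed ran from 0 to 3 members and 10 to 264 genes between Pd7 and Pd3, 0 to 1 and 187 to 1170 between Pd21 and Pd7, and 0 to 2 and 212 to 1258 between Pd21 and Pd3. For age in F1-Control they ran from 1 to 3 members and 428 to 2240 genes from Pd3 to Pd7, and 3 to 5 (3 to 4 with Ttr left aside) and 2741 to 4778 from Pd7 to Pd21. In F1-HHcy they ran from 0 to 3 members and 15 to 1917 genes, and then from 1 to 3 members with Ttr left aside and 525 to 4032 genes.

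Log2 changes that turned with a library left out, none of them called, ran from -0.42 to 0.062 for Rdh10 at Pd3, and at Pd21 from -0.20 to 0.52 for Crabp2, -0.13 to 0.092 for Stra6 and -0.11 to 0.26 for Aldh1a1. Differences between diet effects ran from -0.15 to 0.41 for Crabp2 between Pd7 and Pd3, -0.085 to 0.37 for Rbp4 between Pd21 and Pd7, and -0.22 to 0.26 for Rdh10 and -0.36 to 0.13 for Aldh1a2 between Pd21 and Pd3. Changes from Pd3 to Pd7 in F1-Control ran from -0.11 to 0.10 for Aldh1a2, -0.094 to 0.10 for Aldh1a3 and -0.050 to 0.0099 for Ttr, and from Pd7 to Pd21 in F1-HHcy from -0.21 to 0.16 for Aldh1a1.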
